A study of Mus musculus with 20 samples.

Results

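The genes described here are those of the mitochondrial genome, chrM: 37 of the 34937 genes counted in single mouse embryos, chosen by the chromosome name in the count files. They comprise 13 protein-coding genes, 2 rRNA genes and 22 tRNA genes. The question was how much of each embryo's RNA came from chrM, how it was divided among these genes, and whether either differed when the maternal supply of G9a was lost. G9a, the product of Ehmt2, is a histone methyltransferase that places the H3K9me2 mark on nuclear chromatin.

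RNA was measured in single 8-cell (8C) embryos at E2.5. The 9 Ehmt2Cntr embryos had Ehmt2F/+ mothers and the 10 Ehmt2Mat embryos had Ehmt2F/- mothers, so that the conditional allele left the first oocytes with an intact Ehmt2 copy and the second with none. Mothers of both groups carried Zp3-Cre, a transgene driven by an oocyte promoter that removes the floxed Ehmt2 allele in the growing oocyte, and fathers of both groups were Ehmt2+/-. The zygotic genotype was +/- in 3 and +/+ in 6 Ehmt2Cntr embryos, and -/- in 5 and +/- in 5 Ehmt2Mat embryos. Control embryo 4 was not analysed here. The labels give no mother or litter, so maternal genotype and litter cannot be told apart, and p-values treat each embryo as an independent sample.

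Mammalian mtDNA is a small circle inherited through the oocyte, and the cleaving embryo depends on the mitochondria it received there. Both strands are transcribed into long precursors by the polymerase POLRMT with its factors TFAM and TFB2M. The tRNAs lie between most of the rRNA and mRNA sequences and are cut out at their ends, which releases the neighbouring RNAs, and the mature mRNAs, mostly polyadenylated, code for subunits of the respiratory chain and of ATP synthase.

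The sequences that matter most below are those of 4 tRNA genes lower in Ehmt2Mat, and of a gene that shares nearly all of its sequence with a nuclear copy. The tRNA genes are printed 5′ to 3′ on the strand of the gene, with the anticodon in capitals, found as the match to its triplet nearest to base 34. They are the tRNAs for leucine (mt-Tl1, chrM:2676-2750, plus strand), methionine (mt-Tm, chrM:3845-3913, plus), tryptophan (mt-Tw, chrM:4950-5016, plus) and alanine (mt-Ta, chrM:5018-5086, minus) in GRCm38.
mt-Tl1: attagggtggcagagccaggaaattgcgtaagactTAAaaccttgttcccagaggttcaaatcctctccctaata
mt-Tm: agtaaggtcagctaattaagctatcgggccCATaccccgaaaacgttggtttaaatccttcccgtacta
mt-Tw: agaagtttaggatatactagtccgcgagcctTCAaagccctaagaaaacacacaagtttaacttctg
mt-Ta: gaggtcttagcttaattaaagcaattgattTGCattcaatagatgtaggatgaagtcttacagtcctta

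The first 60 bases of mt-Nd3 (chrM:9459-9518, plus strand), a complex I subunit gene, differ from those of the annotated nuclear pseudogene Gm28438 (chr1:24613060-24613119, minus strand) at a single base, printed in capitals.
mt-Nd3: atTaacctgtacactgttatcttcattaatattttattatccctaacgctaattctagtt
Gm28438: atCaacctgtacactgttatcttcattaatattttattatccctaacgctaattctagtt

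The total count per embryo lay between 12985149 and 30053248 in Ehmt2Cntr and between 8231646 and 30602434 in Ehmt2Mat, so that 3 counts correspond to 0.0980 to 0.364 CPM, the count scaled to a common library size. Ehmt2 itself had 142.5 CPM ± 61.4 (SD, n = 9) in Ehmt2Cntr and 102 CPM ± 36.3 (SD, n = 10) in Ehmt2Mat, a log2 fold change of -0.47 (SE 0.24, adjusted p = 0.233, edgeR's quasi-likelihood test with Benjamini-Hochberg adjustment). The counts cover every exon, and whether reads came from the deleted part was not tested. The 10 cleavage embryo markers summed to between 2059 and 3873 CPM in Ehmt2Cntr (median 2564) and between 3033 and 3985 CPM in Ehmt2Mat (median 3562). In 7 of the 9 controls this sum was below that of every Ehmt2Mat embryo. Most of it was Dppa3, with 1935 CPM ± 603 (SD, n = 9) in Ehmt2Cntr and 2387 CPM ± 307 (SD, n = 10) in Ehmt2Mat. The markers did not move together. By mean, Dppa3, Oosp1, Tfap2c, Tead4 and Nlrp5 were higher in Ehmt2Mat, and Pou5f1, Zp3, Gdf9, Padi6 and Khdc3 were lower. The 4 oviduct epithelium markers summed to between 0.0940 and 404 CPM in Ehmt2Cntr (median 2.31) and between 9.77 and 2847 CPM in Ehmt2Mat (median 106). Most of that signal was Ovgp1, an oviduct secretory glycoprotein gene, which was above 0 in all embryos, and every Ehmt2Mat embryo was above the Ehmt2Cntr median. Among the 8 cumulus or granulosa cell markers, 5 were at 0 in every embryo, and the 5 blood markers summed to at most 9.35 CPM.

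Genes of chrM took 6.47% to 20.4% of the counts in Ehmt2Cntr (median 12.9%, mean 12.6% ± 4.81, SD, n = 9) and 8.03% to 21.7% in Ehmt2Mat (median 12.3%, mean 13.5% ± 4.91, SD, n = 10). The difference of the means, 0.842 percentage points, was smaller than the SD of either group, and the groups overlapped over most of their range. In Ehmt2Mat embryos 8 and 7 and Ehmt2Cntr embryo 8, the highest of all, between 20.1% and 21.7% of the counts came from chrM, and in Ehmt2Cntr embryos 1 and 3, the lowest, 6.47% and 6.67%. Between 5 and 8 of the 10 most highly counted genes of an embryo were chrM genes. The gene for the large mitochondrial rRNA, mt-Rnr2, ranked between 1 and 3 in every embryo. In these bulk libraries fewer mitochondria and less RNA per mitochondrion, like fewer cells of a type and less RNA per cell, cannot be told apart.

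The groups differed more in how the chrM count was divided. The 2 rRNA genes took 18.5% to 32.3% of it in Ehmt2Cntr (median 23.9%, mean 24.5% ± 4.49, SD, n = 9) and 26.1% to 54.3% in Ehmt2Mat (median 38.6%, mean 39.0% ± 10.6, SD, n = 10). In 7 of the 10 Ehmt2Mat embryos this share was above that of every Ehmt2Cntr embryo, and in 3 it overlapped. The protein-coding genes took 74.2% ± 4.38 (SD, n = 9) in Ehmt2Cntr and 60.3% ± 10.4 (SD, n = 10) in Ehmt2Mat, with 7 Ehmt2Mat embryos below every control. The tRNA genes took 1.32% ± 0.367 (SD, n = 9) and 0.728% ± 0.199 (SD, n = 10), with 6 Ehmt2Mat embryos below every control. Together these shares make up the whole chrM count, so a higher rRNA share goes with lower shares of the rest. Of the embryo's total count, the protein-coding genes took 9.27% ± 3.42 (SD, n = 9) in Ehmt2Cntr and 7.95% ± 2.55 (SD, n = 10) in Ehmt2Mat. On that scale 1 Ehmt2Mat embryo was below every control. These sums over genes are descriptions, without a test.

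**Figure D1:**
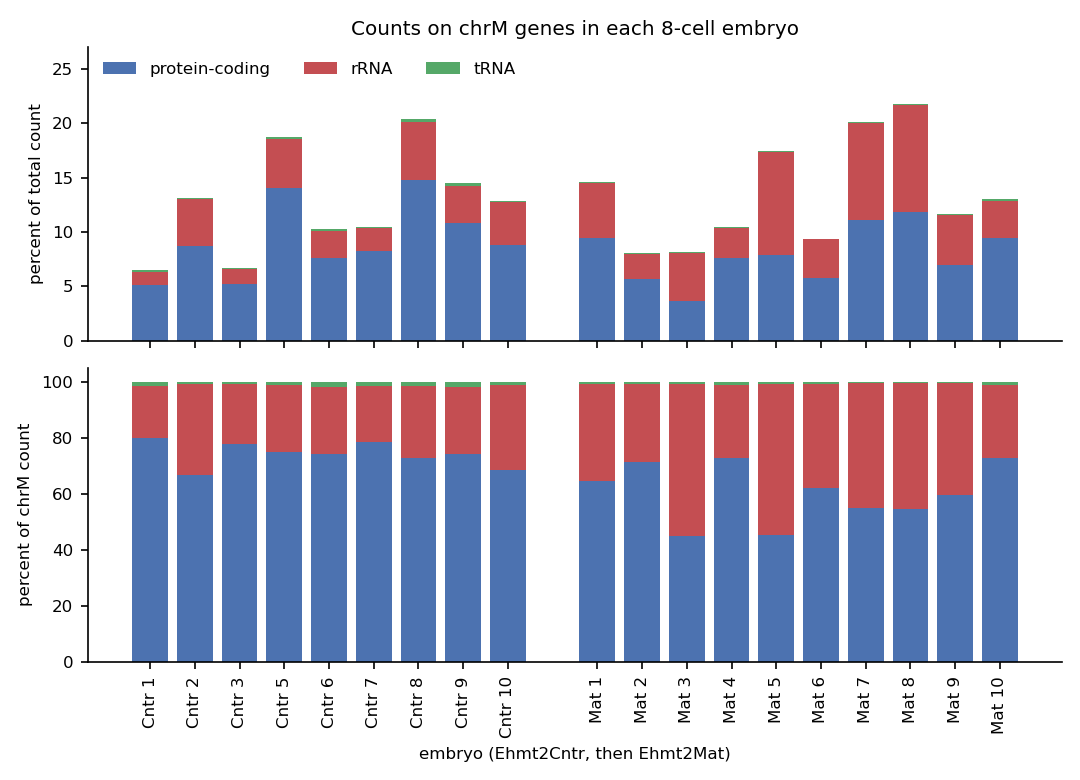
Counts on chrM genes in each embryo, as a percent of the embryo's total count (top) and of its chrM count (bottom), with protein-coding, rRNA and tRNA genes stacked in separate colours; Cntr is Ehmt2Cntr and Mat is Ehmt2Mat. The height of the upper bars, 6.47% to 21.7%, overlaps between the groups, and the rRNA part of the lower bars is larger in most Ehmt2Mat embryos.

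Of the 37 genes, 28 had counts: both rRNA genes, 8 protein-coding genes and 18 tRNA genes. All but mt-Tl2, a leucine tRNA gene above 0 in 18 embryos, were counted in all 19 embryos. The other 9 were at 0 in every embryo. These are mt-Co2 and mt-Co3 (cytochrome c oxidase subunits), mt-Atp6 and mt-Atp8 (ATP synthase subunits), mt-Nd4l (complex I), and the tRNA genes mt-Ts1, mt-Td, mt-Tk and mt-Ty. A count of 0 allows at most 3 counts, or 0.0980 to 0.364 CPM depending on the embryo, and this covers counting error only. In contrast, mt-Co1, a subunit of the same oxidase as mt-Co2 and mt-Co3, had between 54278 and 634311 counts.

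The genes at 0 lay together on the circle, with 7 of them contiguous from mt-Ts1 to mt-Co3. Annotation of GRCm38 places 7 pseudogenes with near-identical sequence in the same order on chromosome 1 (chr1:24611535-24616197, minus strand), a nuclear copy of chrM:6381-11042. Over 4149 compared bases the copy differed from chrM at 7 positions. Of these, 6 lay near one end, between chrM:6383 and chrM:6393 in mt-Co1, and 1 lay in mt-Nd3. The stretch spans 4662 bases on chrM and 4663 on chromosome 1, and where the lengths differ was not examined. For mt-Co2, 100% of the 50-base windows a read could cover were also found in an annotated nuclear transcript, and the shares were 90.1% for mt-Co3, 88.3% for mt-Atp6 and 85.1% for mt-Nd4l. For mt-Atp8 the share was 17.4%, because most of its stretch of chromosome 1 is not annotated as a transcript and was not compared. The tRNA genes at 0 had a share of 0%: mt-Ts1, mt-Td and mt-Tk in the copied stretch, whose copies were not compared either, and mt-Ty outside it. Among genes with counts, 0% of the windows of mt-Nd1 and mt-Rnr1, 0.992% of those of mt-Rnr2 and 0.352% of those of mt-Cytb were shared. The share alone thus did not separate the genes at 0 from those with counts.

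Of the 11 genes lying wholly in the copied stretch, 8 were at 0 and 3 had low counts, and of the 24 genes wholly outside it 1 was at 0, the tyrosine tRNA gene mt-Ty. The 3 with counts adjoin one another: mt-Tg (11 to 687 counts), mt-Nd3 (17 to 890) and mt-Tr (5 to 177). In mt-Nd3, 86.4% of windows were shared. The pair of sequences printed above differs only at position 3 over the 345 bases compared (T3C, chrM base first, counted from the start of mt-Nd3). Of the 46 windows of mt-Nd3 in no nuclear transcript, 43 held that position and 31 reached at least 10 bases into mt-Tg. The annotated copy begins at base 1 of mt-Nd3. Windows that start before it therefore had no annotated transcript to match, whatever base stood at position 3. Another 2 genes lie partly inside, mt-Co1, with 49.8% shared windows, and mt-Nd4, with 60.4%. Whether the counts of 0 arose when reads matching both places were assigned or discarded was not tested. The levels of mt-Tg, mt-Nd3, mt-Tr, mt-Co1 and mt-Nd4 are therefore uncertain, and the pseudogenes themselves are not among the counted genes.

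**Figure D2:**
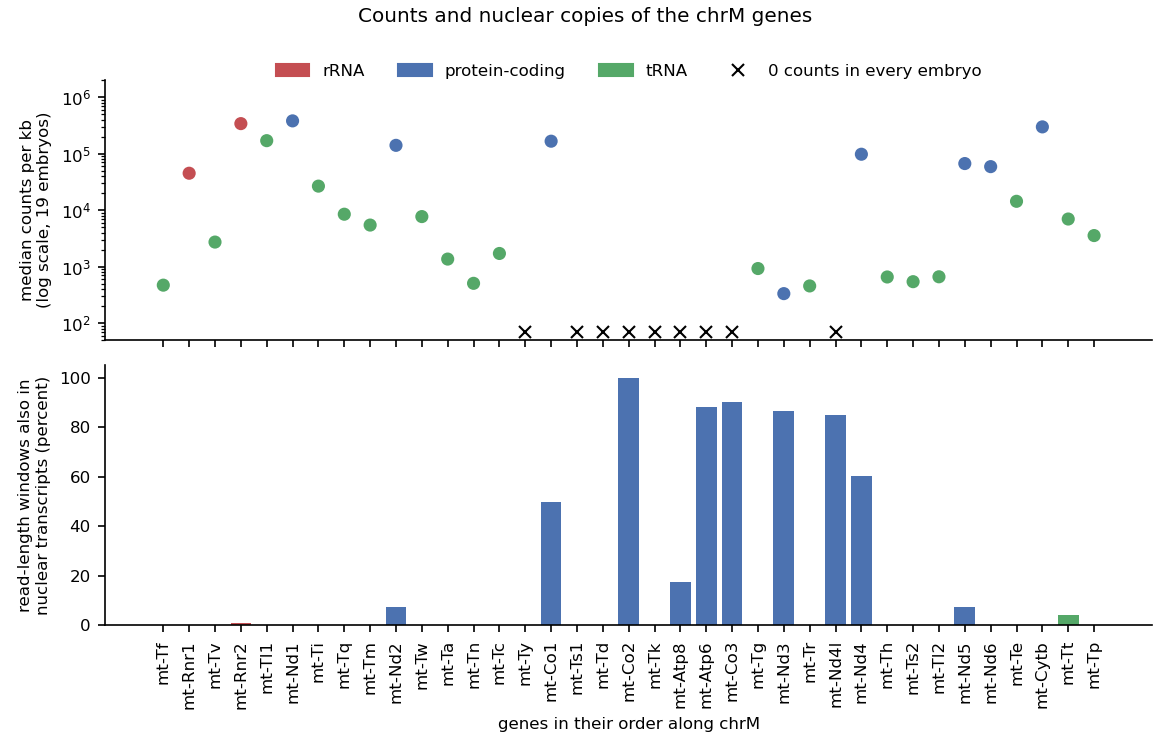
Median count per kb of each chrM gene over 19 embryos on a log scale (top; crosses mark the 9 genes at 0 in every embryo) and the percent of its 50-base windows that also occur in an annotated nuclear transcript (bottom), in gene order along chrM. The crosses at mt-Co2, mt-Atp6, mt-Co3 and mt-Nd4l lie over tall bars, and that at mt-Atp8 over a short one. Those at mt-Ts1, mt-Td, mt-Tk and mt-Ty lie over no bar, while mt-Nd3 and mt-Nd4 have tall bars and no cross.

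Scaled by gene length, the median CPM per kb over all embryos was highest for mt-Nd1 (22753), mt-Rnr2 (22715) and mt-Cytb (19179). Next came the complex I gene mt-Nd2 (9675) and mt-Co1 (8359), then mt-Nd4 (5835), mt-Nd5 (4047), mt-Nd6 (3415) and the small rRNA gene mt-Rnr1 (2486). The last was mt-Nd3 (18.2), below all of these in each of the 19 embryos. Lengths were those of the whole gene. The places of mt-Nd3, mt-Nd4 and mt-Co1 are uncertain, since 86.4%, 60.4% and 49.8% of their windows were shared with nuclear transcripts. Neighbours in this order were mostly not separated: mt-Nd1 was above mt-Cytb, the cytochrome b gene of complex III, in 13 of 19 embryos, mt-Nd2 above mt-Co1 in 10 and mt-Nd1 above mt-Rnr2 in 10. Further apart, mt-Nd1 was above mt-Nd2 in 19 of 19 embryos. In Ehmt2Mat, and over all embryos together, mt-Rnr1 had the widest relative spread of these 10 genes, as the highest over the lowest value. In Ehmt2Mat it ran from 720 to 26077 CPM per kb. In Ehmt2Cntr it lay between 439 and 3194 CPM per kb, and mt-Nd3 had the widest relative spread, from 5.09 to 91.0.

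**Figure D3:**
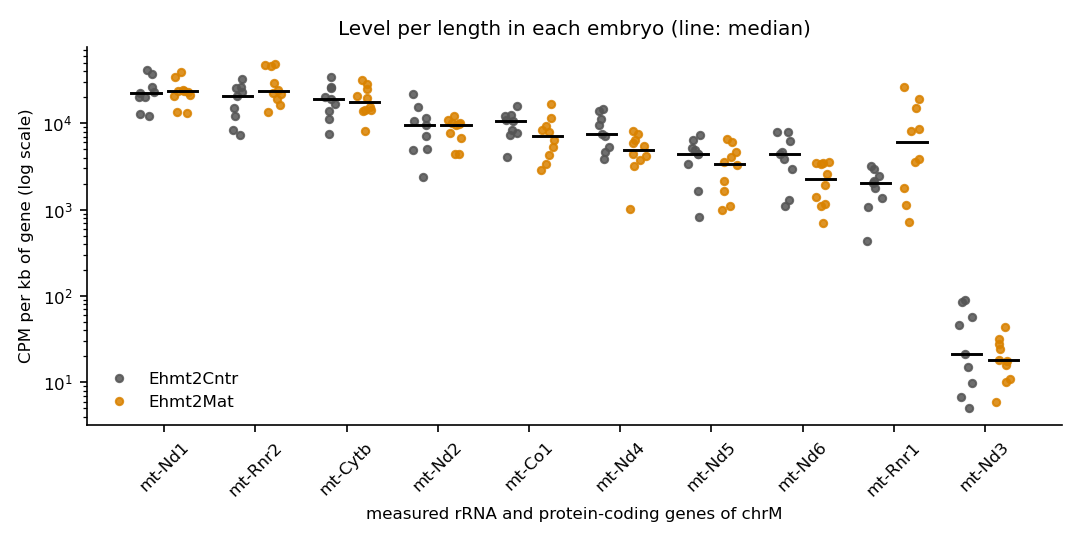
CPM per kb of gene length, on a log scale, of the 2 rRNA and 8 measured protein-coding genes in each embryo (points) with the group median (line). Most neighbouring genes overlap, mt-Nd3 lies far below the rest, and mt-Rnr1 is the gene with the widest relative spread in Ehmt2Mat. The levels of mt-Nd3, mt-Nd4 and mt-Co1, wholly or partly in the stretch copied on chromosome 1, are uncertain.

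Each gene was then compared between 10 Ehmt2Mat and 9 Ehmt2Cntr embryos in a fit over all 11754 genes that passed the filter on low counts, which all 28 measured chrM genes did. At an adjusted p under 0.05, 1 chrM gene was higher in Ehmt2Mat and 4 were lower (edgeR's quasi-likelihood test with Benjamini-Hochberg adjustment), 5 of 28, while 9.35% of all tested genes were called, 4.37% as higher and 4.98% as lower. The log2 fold change was below 0 for 24 of the 28 genes, with a median of -0.67 against -0.04 over all tested genes. The 4 genes above 0 were mt-Tf, mt-Rnr1, mt-Tv and mt-Rnr2, the first 4 genes of chrM in its coordinates. Levels below are CPM with TMM-scaled library sizes.

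The gene that rose was mt-Rnr1 (ENSMUSG00000064337), which encodes the 12S rRNA of the small mitochondrial ribosomal subunit. Its level was 384 to 3580 CPM in Ehmt2Cntr (median 2084) and 636 to 26292 CPM in Ehmt2Mat (median 5870). In 6 of the 10 Ehmt2Mat embryos it was above every control, and in the other 4 it lay within the control range. Its log2 fold change was 2.23 (SE 0.56, adjusted p = 0.0135 with edgeR's quasi-likelihood test). The highest level was 68.5 times the lowest over all embryos, against 4.23 times for mt-Nd1. Ehmt2Mat embryos 8, 5 and 7 had the most, 26292, 20440 and 15394 CPM, and their oviduct epithelium markers summed to 23.5, 68.8 and 13.03 CPM. Ehmt2Mat embryo 3, with the highest marker sum (2847 CPM), had 8130 CPM, above every control. Ehmt2Mat embryo 10, with the lowest marker sum of its group (9.77 CPM), had 3529 CPM, within the control range. Whether this level and the marker sum are related was not tested.

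The 16S rRNA gene mt-Rnr2 lay at 10607 to 57335 CPM in Ehmt2Cntr (median 32262) and 19615 to 86043 CPM in Ehmt2Mat (median 38840). Its groups overlapped, with 3 Ehmt2Mat embryos above every control, and its log2 fold change of 0.62 (SE 0.32, adjusted p = 0.248) did not pass the test. The count of mt-Rnr2 was 9.31 to 27.6 times that of mt-Rnr1 in Ehmt2Cntr (median 16.9) and 2.92 to 49.9 times in Ehmt2Mat (median 7.04). The pair of tRNA genes that border the 12S gene also had positive values, 1.45 for mt-Tf (phenylalanine; SE 0.64, adjusted p = 0.171) and 0.91 for mt-Tv (valine; SE 0.43, adjusted p = 0.201), neither past the threshold. All 10 Ehmt2Mat embryos were above the control median in both. Since a 50-base read needed 10 bases in a gene to be counted for it and was counted for every gene it reached, reads of mt-Rnr1 could also count for these tRNA genes, which lie at most 1 base from it.

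None of the 8 measured protein-coding genes passed the threshold in edgeR's quasi-likelihood test (2 had an unadjusted p under 0.05, and DESeq2, which called 8.07% of all tested genes as lower, called those 2). All 8 had a log2 fold change below 0, with a median of -0.35. With 1 embryo left out in turn, mt-Nd1 (-0.14 to 0.14), mt-Nd2 (-0.38 to 0.05) and mt-Cytb (-0.15 to 0.16) lay on both sides of 0. The others stayed below it. In the embryos with under 100 CPM of oviduct epithelium markers, mt-Co1, mt-Cytb, mt-Nd1 and mt-Nd5 were above 0 and the rest of this class below. For mt-Nd1, the most abundant per length, the levels were 10401 to 44029 CPM in Ehmt2Cntr (median 21674) and 12062 to 39181 CPM in Ehmt2Mat (median 22557). The groups overlapped almost wholly, with a log2 fold change of -0.03 (SE 0.27, adjusted p = 0.969). For mt-Cytb the value was -0.04 (SE 0.28, adjusted p = 0.961).

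The lower end of this class was mt-Nd6, the complex I subunit gene on the opposite strand to the others, at 510 to 4644 CPM in Ehmt2Cntr (median 2163) and 358 to 2014 CPM in Ehmt2Mat (median 1116). All 10 Ehmt2Mat embryos were below the control median and 1 was below every control. Its log2 fold change was -0.97 (SE 0.38, adjusted p = 0.110), and that of mt-Nd4 was -0.83 (SE 0.32, adjusted p = 0.106). DESeq2 gave adjusted p-values of 0.0377 and 0.0426 for these 2 genes. For mt-Nd3 the level was 1.62 to 31.0 CPM in Ehmt2Cntr and 2.06 to 16.1 CPM in Ehmt2Mat, and its log2 fold change was -0.85 (SE 0.55, adjusted p = 0.375). In every embryo mt-Atp8 was at 0.

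Strand was not used in the counting, so a read from the opposite strand counts for mt-Nd6 and for the 8 tRNA genes of the minus strand too. The count of mt-Nd6 relative to that of mt-Nd5, which lies next to it on the other strand and overlaps it by 14 bases, was 0.222 to 0.408 in Ehmt2Cntr (median 0.258) and 0.154 to 0.330 in Ehmt2Mat (median 0.185). In 8 of 10 Ehmt2Mat embryos the ratio was below every control, and 2 lay within the control range.

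Among the 18 measured tRNA genes, 4 fell and 14 did not pass the test, where 4.98% of all tested genes were called as lower. Of the 18, 16 had a log2 fold change below 0, with a median of -0.78 against -0.04 over all tested genes. The largest fall was in the alanine tRNA gene mt-Ta (ENSMUSG00000064347), which lay at 5.29 to 46.2 CPM in Ehmt2Cntr (median 14.7) and 1.71 to 6.40 CPM in Ehmt2Mat (median 2.92). In 8 of 10 Ehmt2Mat embryos it was below every control, and the other 2 lay at the low end of the control range. Its log2 fold change was -2.33 (SE 0.49, adjusted p = 0.00387). The count behind these levels was 22 to 780. With 1 embryo left out in turn, adjusted p lay between 0.00323 and 0.0110 for mt-Ta and between 0.00577 and 0.0303 for mt-Rnr1.

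The methionine tRNA gene mt-Tm (ENSMUSG00000064344) lay at 13.3 to 116 CPM in Ehmt2Cntr (median 38.8) and 4.12 to 27.2 CPM in Ehmt2Mat (median 17.5), a log2 fold change of -1.50 (SE 0.37, adjusted p = 0.0120). The tryptophan tRNA gene mt-Tw (ENSMUSG00000064346) lay at 19.2 to 84.7 CPM (median 42.0) and 10.1 to 33.8 CPM (median 22.2), a change of -1.07 (SE 0.31, adjusted p = 0.0284). In both genes all 10 Ehmt2Mat embryos were below the control median while the ranges overlapped. The leucine tRNA gene mt-Tl1 (ENSMUSG00000064340), which directly joins mt-Rnr2 to mt-Nd1, lay at 261 to 2347 CPM (median 981) and 410 to 989 CPM (median 641), a change of -0.95 (SE 0.29, adjusted p = 0.0383). There 9 of 10 Ehmt2Mat embryos were below the control median, and the lowest embryo of all was a control. The call of mt-Tw was lost without any one of Ehmt2Cntr embryos 7, 8 and 9 (adjusted p up to 0.0712). That of mt-Tl1 was lost without any one of Ehmt2Cntr embryos 5, 6, 8 and 9 and Ehmt2Mat embryos 2, 3, 5, 6, 8 and 9 (adjusted p up to 0.0925). The 4 tRNAs differ in amino acid and anticodon, and mt-Tw and mt-Ta are neighbours 1 base apart on opposite strands. Reads of neighbouring genes could count for these tRNA genes too, since mt-Tm directly joins mt-Nd2 and mt-Tw overlaps its other end.

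The glycine tRNA gene mt-Tg, next in size, lay at 1.16 to 25.3 CPM in Ehmt2Cntr (median 6.51) and 1.33 to 6.61 CPM in Ehmt2Mat (median 3.15). Here 4 controls were above every Ehmt2Mat embryo, none of which was below every control, and the log2 fold change of -1.53 (SE 0.60, adjusted p = 0.113) did not pass edgeR's quasi-likelihood test. It was called by DESeq2 (adjusted p = 0.0436) and by edgeR among genes with at least 10 counts in every embryo (adjusted p = 0.0335). Its count was 0.597 to 0.943 of that of mt-Nd3, the gene it adjoins, in Ehmt2Cntr (median 0.748) and 0.384 to 0.647 in Ehmt2Mat (median 0.501). Ehmt2Mat was below every control in this ratio in 7 of 10 embryos. Both genes lie wholly in the stretch copied on chromosome 1, so their levels are uncertain.

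**Figure D4:**
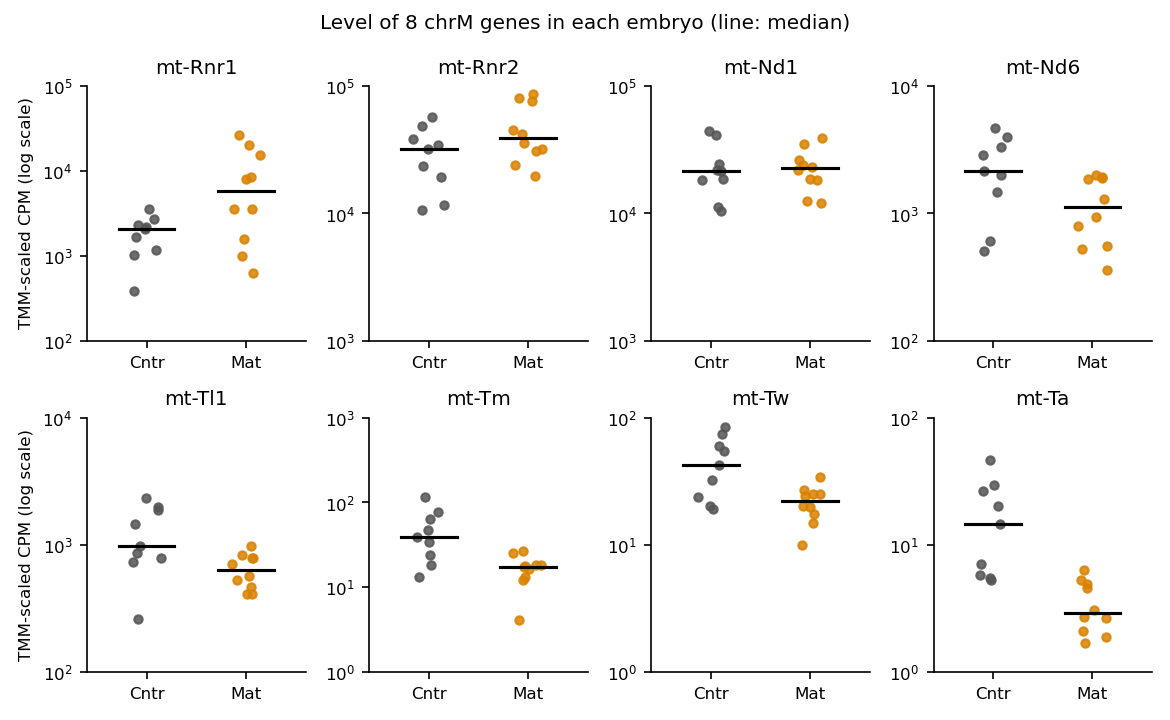
TMM-scaled CPM of 8 chrM genes in each embryo (points, log scale), by group, with the group median as a line. Several Ehmt2Mat embryos lie above the controls in mt-Rnr1, the groups overlap in mt-Nd1, and most Ehmt2Mat embryos lie below the controls in mt-Ta.

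Calls of most of these genes did not hold in smaller sets of embryos. With the 8 Ehmt2Cntr and 5 Ehmt2Mat embryos in which the oviduct epithelium markers summed to under 100 CPM, an alternative chosen after the data were seen, 1 chrM gene stayed past the threshold, mt-Rnr1, and 12 genes had a log2 fold change above 0 and 16 below, with a median of -0.08. Of all 11952 genes tested in those embryos 321 were called, against 1099 of 11754 in the main comparison. In those embryos mt-Ta had -2.06 (SE 0.68, adjusted p = 0.122), mt-Tm -1.17, mt-Tw -1.10 and mt-Tl1 -0.89. With the zygotic genotype held at +/- (3 against 5 embryos) 0 chrM genes passed (2 had an unadjusted p under 0.05), as 1 of 13401 genes did in all. In that comparison mt-Rnr1 had a value of 2.46 (adjusted p = 0.711), mt-Ta -1.91 (adjusted p = 0.789) and mt-Tl1 -0.05, and 13 chrM genes lay above 0 and 15 below. The part of the oviduct signal in the lower levels of chrM genes was not tested.

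With the chrM count of each embryo as its library size, the same test asks whether a gene's share of the chrM count differed. On this scale 1.8% of all tested genes were called, 0.272% as higher and 1.53% as lower, and 3 chrM genes were called. The median over all genes moved to -0.19. The 12S rRNA gene mt-Rnr1 took 0.648% to 2.19% of the chrM count in Ehmt2Cntr (median 1.63%) and 0.733% to 11.5% in Ehmt2Mat (median 4.66%). Here 7 Ehmt2Mat embryos were above every control, with a log2 fold change of 1.88 (SE 0.43, adjusted p = 0.0186, edgeR's quasi-likelihood test with Benjamini-Hochberg adjustment).

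The share of mt-Ta was 0.00419% to 0.0325% in Ehmt2Cntr (median 0.0120%) and 0.00142% to 0.00348% in Ehmt2Mat (median 0.00276%). Its groups did not overlap, as was the case for 0.0936% of all tested genes on this scale, and its log2 fold change was -2.42 (SE 0.54, adjusted p = 0.0171). In the embryos with under 100 CPM of oviduct epithelium markers it was -2.55 (SE 0.76, adjusted p = 0.0757), past the threshold no longer. No chrM gene was without overlap on the TMM scale, where 0.519% of tested genes were. The share of mt-Nd6 was 0.852% to 3.13% in Ehmt2Cntr (median 1.76%) and 0.442% to 1.41% in Ehmt2Mat (median 0.859%). With 5 Ehmt2Mat embryos below every control, its log2 fold change was -1.07 (SE 0.29, adjusted p = 0.0482). This call held with 1 embryo left out in 5 of 19 fits, those without Ehmt2Cntr embryo 1, 2, 3 or 5 or Ehmt2Mat embryo 10 (adjusted p up to 0.126 in the others), and was lost in the embryos with under 100 CPM of oviduct epithelium markers (-0.90, adjusted p = 0.190).

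The share of mt-Rnr2 was 17.9% to 30.5% in Ehmt2Cntr (median 22.7%) and 23.4% to 44.2% in Ehmt2Mat (median 33.4%), and 7 Ehmt2Mat embryos were above every control. Its log2 fold change of 0.54 (SE 0.23, adjusted p = 0.225) did not pass the test. The signs on this scale were those of the TMM scale for the 4 genes above 0, and the median over the 28 chrM genes was -0.83. When library sizes were instead set by the 8 measured protein-coding genes, or by TMM factors over chrM genes, mt-Nd1, mt-Nd2 and mt-Cytb also turned to values above 0, so their direction is not fixed. On those scalings mt-Rnr1 was called in both and mt-Ta in the first only, with adjusted p = 0.0963 in the second.

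**Figure D5:**
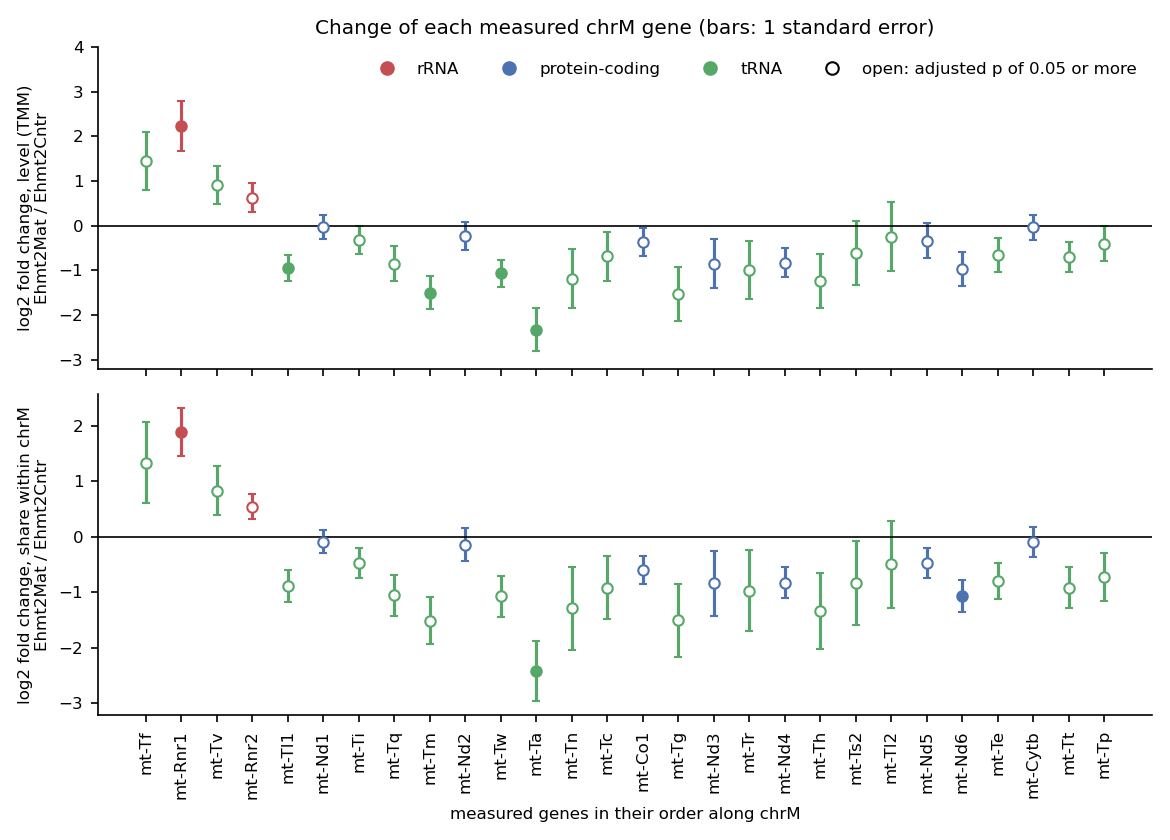
Log2 fold change of Ehmt2Mat over Ehmt2Cntr for the 28 measured chrM genes in their order along chrM, with bars of 1 standard error, for TMM-scaled levels (top) and for shares of the chrM count (bottom); filled points passed an adjusted p under 0.05. The first 4 genes lie above 0 and the other 24 below it in both panels, and mt-Rnr1 and mt-Ta are filled in both.

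Within Ehmt2Mat, embryos without a functional zygotic Ehmt2 copy (-/-, n = 5) were compared with those that had one (+/-, n = 5). Of 28 chrM genes 0 passed edgeR's quasi-likelihood test, with 0 at an unadjusted p under 0.05, and DESeq2 also called 0. Over all 12195 genes 0% were called. The log2 fold change was above 0 for 25 of the 28 genes, with a median of 0.31 against -0.04 over all genes, and mt-Rnr1 had 0.32 (SE 0.85). At this number of embryos such values were within the spread.

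The RNA of chrM is made, cut, stabilised and decayed by nuclear-encoded proteins, and 65 of their genes were listed, of which 60 were tested. In Ehmt2Mat 3 rose and 1 fell by edgeR's quasi-likelihood test, 4 of 60, while 9.35% of all tested genes were called, 4.37% as higher and 4.98% as lower, so the list did not stand out by its number of calls. The other 56 did not pass the test, and the median log2 fold change was -0.05, against -0.04 over all tested genes. Of 8 tested transcription genes, 2 rose. One was Mrpl12, a mitochondrial ribosomal protein gene whose product also binds POLRMT, with 82.7 to 230 CPM in Ehmt2Cntr (median 159.7) and 199 to 433 CPM in Ehmt2Mat (median 275), a log2 fold change of 0.89 (SE 0.19, adjusted p = 0.00474). The other was Tfb2m, with 0.88 (SE 0.27, adjusted p = 0.0395), a call that was lost without any one of Ehmt2Cntr embryos 1, 2, 3, 5, 6 and 7 and Ehmt2Mat embryos 1, 2, 3, 4, 5, 9 and 10. DESeq2 also called Tefm, a gene for a transcription elongation factor, as higher (adjusted p = 0.0274).

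Among 13 tested genes of mtDNA replication and packaging, 1 rose and 1 fell, where 9.35% of all genes were called in either direction. Rnaseh1, a nuclease that removes RNA from RNA-DNA hybrids, had a log2 fold change of 1.05 (SE 0.30, adjusted p = 0.0294), lost without Ehmt2Cntr embryo 2 or 3 or Ehmt2Mat embryo 1 or 4. Lig3, the DNA ligase of mitochondria, had -0.65 (SE 0.18, adjusted p = 0.0252), lost without Ehmt2Cntr embryo 7. The genes for the core factors had values of -0.42 for Tfam (SE 0.24, adjusted p = 0.296), 0.48 for Polrmt (SE 0.21, adjusted p = 0.165), -0.59 for the DNA polymerase Polg (SE 0.44, adjusted p = 0.473) and 0.68 for the helicase Twnk (SE 0.24, adjusted p = 0.0703), none past the threshold in edgeR's quasi-likelihood test. DESeq2 called Twnk as higher (adjusted p = 0.0319) and Atad3a as lower (adjusted p = 0.0246).

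None of the 10 genes of RNA processing passed edgeR's quasi-likelihood test, among which are those for the enzymes that cut tRNA ends (4 at an unadjusted p under 0.05, and DESeq2 called Trmt10c). Nor did any of the 14 genes of RNA stability and decay (4 at an unadjusted p under 0.05, and DESeq2 called Pde12). The mRNA-stabilising Lrpprc had -0.78 (SE 0.35, adjusted p = 0.173). The genes of nucleotide supply, nuclear regulators and matrix proteases, 15 tested in all, gave 0 calls in this test, with 1 at an unadjusted p under 0.05, Yy1, which DESeq2 called. With the embryos under 100 CPM of oviduct epithelium markers 0 of the listed genes passed (9 at an unadjusted p under 0.05, smallest adjusted p = 0.0581), and at one zygotic genotype 0 passed (4 at an unadjusted p under 0.05). Over all tested genes, 321 of 11952 and 1 of 13401 were called in these settings.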

How the data were processed

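Single-embryo RNA-seq of 9 Ehmt2Cntr and 10 Ehmt2Mat embryos was analysed, grouped by the maternal genotype in the labels. The authors deposited raw counts, the reads on the exons of each of 34937 Ensembl genes (release 82, GRCm38), without normalization. Per the file headers, featureCounts 1.5.0 was run so that a read needed at least 10 bases in a gene, counted for all genes it overlapped, was kept if flagged as multi-mapping, and was counted without regard to strand. The aligner for these files is not given in the sources used here: for genes, the methods name Tophat2 with SeqMonk and DESeq2, and for transposable elements bowtie and featureCounts. cDNA was amplified with a 3′ bias and sequenced as single-end 50-base reads, so levels mix abundance with priming, and tRNA counts include reads reaching in from neighbours.

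Here, genes were tested with edgeR 4.0.16 (R 4.3.3; its default filter on low counts, TMM, quasi-likelihood) with Benjamini-Hochberg adjustment at 0.05 over all tested genes, 11754 in the main comparison and 12195 between zygotic genotypes. A further fit took the summed chrM count as library size. Class shares were described without a test. Windows of 50 bases were matched exactly to GENCODE M21 transcripts, which were also the source of the printed sequences. Nuclear copies outside annotated transcripts were not examined. Alternatives were other normalizations and filters, DESeq2 1.42.0, the embryo number as a block, zygotic +/- embryos only, each embryo left out, and, added after seeing the data, embryos with under 100 CPM of oviduct markers. In simulated counts of 11754 genes for the maternal comparison, with 200 changed, 16% of 2-fold and 54% of 4-fold changes were recovered, with 1.41% false calls. Totals were 8231646 to 30602434 per embryo, and count floors cover counting error only. The members and lists were chosen with earlier results of these data known. Named genes were all chrM genes, the listed nuclear genes past the threshold, Tfam, Polrmt, Polg, Twnk, Lrpprc and Ehmt2. Genes named for a call by DESeq2 alone, Ovgp1 and the single cleavage embryo markers were chosen for naming after their values were seen.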

Additional observations from a re-analysis of the deposited data

Results flagged for a closer look

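The serine tRNA gene mt-Ts2 had a TMM-scaled level of 8.962 CPM in Ehmt2Mat embryo 8, while the other Ehmt2Mat embryos lay between 0.185 and 4.50 CPM. The gap to the nearest embryo was 0.509 of the range of the group. Of 64 groups of values examined this was the 1 that stood out, where chance gives about 3.2. The same embryo had the highest level of mt-Rnr1 and the highest chrM share of all embryos. Whether these are related was not tested.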

How the results depend on the processing

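The difference in chrM share, 0.842 percentage points in the main setting, changed sign between settings. It was -1.32 percentage points with protein-coding genes only, -1.24 without both rRNA genes and -0.545 between medians. In +/- embryos it was 3.39, and 4.21 in embryos under 100 CPM of oviduct markers (chosen after seeing the data). With the replicate block it was 1.17, and -0.0769 to 1.81 with 1 embryo left out. Every setting lay within 1 SD between embryos of the main value, a wide margin, since that SD exceeds the main difference itself. Of 28 chrM genes, 5 were called in the main comparison, 8 with DESeq2 (1 higher and 7 lower, adding mt-Nd4, mt-Nd6 and mt-Tg, where 15.1% of all genes were called), 6 with at least 10 counts in every embryo (adding mt-Tg), 3 with a replicate block by embryo number (without mt-Tl1 and mt-Tw), 0 in +/- embryos, 1 in embryos under 100 CPM of oviduct markers, and 3 to 5 with 1 embryo left out, 3 without Ehmt2Cntr 8 or 9. There mt-Rnr1, mt-Ta and mt-Tm passed in 19 of 19 fits, mt-Tw in 16 (not without Ehmt2Cntr 7, 8 or 9) and mt-Tl1 in 9. Calls over all tested genes were 1099 of 11754 in the main comparison and 1375 of 7154 with at least 10 counts in every embryo. They were 693 of 11446 with the replicate block, 1 of 13401 in +/- embryos and 321 of 11952 in embryos under 100 CPM of oviduct markers. Within chrM, 3 were called, 1 (mt-Rnr1) with TMM over chrM genes, 1 (mt-Rnr1) in embryos under 100 CPM of oviduct markers, 0 with the replicate block (10 at an unadjusted p under 0.05, smallest adjusted p = 0.0560 by edgeR), and 2 to 4 with 1 embryo left out, where mt-Nd6 passed in 5 of 19 fits. Of the listed nuclear genes, 4 were called, 10 with DESeq2 (6 higher and 4 lower), 10 with at least 10 counts in every embryo, 0 in +/- embryos, 0 in embryos under 100 CPM of oviduct markers, 4 with the replicate block (3 of them shared with the main comparison), and 2 to 6 with 1 embryo left out, 2 without Ehmt2Cntr 2, Ehmt2Cntr 7, Ehmt2Mat 1 or Ehmt2Mat 4. Between zygotic genotypes 0 chrM genes were called in all settings. No called value reversed. Restricting embryos also lowers the number compared, and other causes were not tested. Same-numbered embryos shared only a number: the correlations of the deviations of 9 pairs lay between -0.156 and 0.0856, and 0 controls correlated best with their own number. Depth limits mt-Tl2, mt-Ts2 and mt-Tn, whose lowest counts were 0, 2 and 4.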
